A study of Mus musculus with 14 samples.

Results

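The gene bodies described here belong to genes from which no RNA read was seen. They were selected on RNA read counts: a gene body of the chromatin score table was taken when its symbol stood in the RNA table with 0 reads in each of the 6 RNA libraries. Of 22470 gene bodies in the score table, 21120 had a symbol in the RNA table and 4553 of these had 0 reads. After removal of 1238 olfactory receptor, vomeronasal receptor and mitochondrial symbols and of 371 gene bodies at 0 in each of the 3 score columns, 2944 silent gene bodies remained, 13.1% of the table. They were set beside 12587 expressed gene bodies, whose genes had a mean of at least 8 normalized counts over the 6 libraries. Between them lay 3749 barely detected gene bodies, with at least 1 read and a mean under 8 normalized counts. Of the silent symbols 896 are Gm and a number or end in Rik. They are called predicted symbols below, by the form of the symbol alone.

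The cells were mouse tumor-derived cells on the C57BL/6 background, grown in culture to passages 6 to 8, and the labels do not name the tumor. The guide RNA was either the control, sgControl, or sgNSD3, named for Nsd3, an H3K36 methyltransferase gene. RNA came from 3 libraries per condition, and chromatin libraries comprised 4 for H3K36me2, 2 for H3K27me3 and 2 titled IgG; nothing in the labels says that libraries of a condition came from separate cultures. Nsd3 had 14568.4, 14401.9 and 14674.5 normalized counts in sgControl libraries 1 to 3 and 21988.8, 22011.5 and 21836.9 in the libraries labelled sgNSD3, so its RNA was higher in the latter and does not check the guide. The members were chosen across both conditions together, so that no label separates them.

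H3K27me3 is trimethylation of lysine 27 of histone H3, laid down by Polycomb repressive complex 2 over silent genes, in particular over developmental regulators with CpG-rich promoters. H3K36me2 is dimethylation of lysine 36 of the same histone, laid down by enzymes of the NSD family over broad stretches of genes and of the DNA between them, and it hinders methylation of lysine 27 on the same histone tail. Silent genes in a cultured cell are of several kinds: genes of other lineages, often in clusters of copies, genes of the germ line, and switches of development.

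Promoters of 6 silent genes at the ends of the H3K27me3 order are shown so that the genes with the lowest and the highest scores can be compared. Each line gives the 250 bases before a RefSeq transcription start on the gene's own strand (GRCm38.p6, the mm10 build), with each CG dinucleotide in capitals. In Evx2 (gene span 74652989 to 74661520), Hes5 (154960626 to 154962372) and Mpped1 (83779472 to 83858487) these bases lie inside the gene span. There they precede an internal start and are not upstream of the whole gene. The first 3 genes had the lowest H3K27me3 scores and the last 3 the highest. Evx2 lies at chr2:74659558-74659807 (minus strand), Hes5 at chr4:154960673-154960922 (plus), Pitx3 at chr19:46148326-46148575 (minus), Hba-a1 at chr11:32283422-32283671 (plus), Bhlhe23 at chr2:180776901-180777150 (minus) and Mpped1 at chr15:83779773-83780022 (plus).
Evx2: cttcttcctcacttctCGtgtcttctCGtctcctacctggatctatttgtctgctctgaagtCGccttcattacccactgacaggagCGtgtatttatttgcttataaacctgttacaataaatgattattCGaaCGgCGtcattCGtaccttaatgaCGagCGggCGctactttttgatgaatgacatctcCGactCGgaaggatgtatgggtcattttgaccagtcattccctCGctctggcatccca
Hes5: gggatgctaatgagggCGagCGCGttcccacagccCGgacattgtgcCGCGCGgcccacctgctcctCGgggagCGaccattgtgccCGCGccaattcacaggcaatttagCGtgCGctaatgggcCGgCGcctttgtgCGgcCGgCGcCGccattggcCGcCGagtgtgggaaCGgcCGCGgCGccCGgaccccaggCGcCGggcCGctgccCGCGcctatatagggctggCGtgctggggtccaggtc
Pitx3: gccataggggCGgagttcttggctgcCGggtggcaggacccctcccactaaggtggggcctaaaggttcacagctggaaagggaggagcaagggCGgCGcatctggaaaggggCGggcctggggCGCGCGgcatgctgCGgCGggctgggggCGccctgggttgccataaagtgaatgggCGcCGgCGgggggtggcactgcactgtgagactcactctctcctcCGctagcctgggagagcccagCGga
Hba-a1: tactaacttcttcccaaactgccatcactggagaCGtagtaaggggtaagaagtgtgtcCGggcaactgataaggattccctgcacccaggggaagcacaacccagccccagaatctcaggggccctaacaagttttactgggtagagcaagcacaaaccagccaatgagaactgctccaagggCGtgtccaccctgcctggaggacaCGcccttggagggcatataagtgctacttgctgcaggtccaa
Bhlhe23: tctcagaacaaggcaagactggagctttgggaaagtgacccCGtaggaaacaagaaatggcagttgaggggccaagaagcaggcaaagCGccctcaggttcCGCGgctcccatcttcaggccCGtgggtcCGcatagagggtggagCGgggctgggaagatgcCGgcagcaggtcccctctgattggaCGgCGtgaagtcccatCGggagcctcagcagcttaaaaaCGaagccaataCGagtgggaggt
Mpped1: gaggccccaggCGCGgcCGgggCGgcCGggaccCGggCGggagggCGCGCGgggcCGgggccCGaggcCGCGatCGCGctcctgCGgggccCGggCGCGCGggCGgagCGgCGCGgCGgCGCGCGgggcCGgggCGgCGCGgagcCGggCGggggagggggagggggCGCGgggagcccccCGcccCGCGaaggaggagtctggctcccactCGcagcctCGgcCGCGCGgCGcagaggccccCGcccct
The printed bases hold 14, 32 and 16 CG dinucleotides in Evx2, Hes5 and Pitx3, and 4, 13 and 47 in Hba-a1, Bhlhe23 and Mpped1. Over the whole window, to 50 bases after the start, the counts were 16, 41 and 20, and 4, 19 and 59, beside a median of 3 over silent promoters. Only Hba-a1 of the 6 was near that median.

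The 2 questions put to the score table were whether silent gene bodies hold other scores than expressed ones, and how they differ among themselves. In the authors' deposited table each gene body has a signed score in 1 H3K27me3 column and in 2 H3K36me2 columns, called sample 1 and sample 2. Each score behaves as the height of one library minus the height of another: the 40 commonest values of each column could each be written as a whole number of steps of one size less a whole number of steps of another, and the 6 step sizes of the columns were distinct. The table does not name the libraries or their order, so a score above 0 says only that the added library was the higher one, and no direction between the conditions was drawn. No library has values of its own there, so differences have no replicate error and no test, and each score below is a description.

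H3K27me3 scores were higher over silent gene bodies than over expressed ones, and H3K36me2 scores were lower. The median H3K27me3 score was 0.0209 over silent and -0.0355 over expressed gene bodies, a difference of 0.0564. Of silent gene bodies 58.6% scored above 0, against 18.1% of expressed ones and a background of 29% over all 19280 gene bodies of the 3 classes. The silent median lay above 88.3% of expressed gene bodies. Silent scores were also more spread, with an interquartile range of 0.119 against 0.0626, 1.90 times as wide, though the barely detected class was wider still at 0.138. The silent scores ran from -0.472 to 0.553, a narrower full range than the -1.91 to 0.582 of expressed gene bodies.

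In the H3K36me2 columns silent and expressed gene bodies overlapped more. In sample 1 the medians were 0.0526 for silent and 0.0774 for expressed gene bodies, a difference of -0.0248, and 84.0% and 93.3% scored above 0, beside a background of 91.9%. In sample 2 the medians were 0.0921 and 0.134, a difference of -0.0420, and 87.9% and 96.5% scored above 0, beside a background of 94.9%. In units of the expressed interquartile range the differences were -0.319 and -0.366, and that of H3K27me3 was 0.901. The sample 1 difference depended on which gene bodies were counted: it was -0.0131 on autosomes alone, -0.0129 without predicted symbols and -0.0132 over medians of family stems. The sample 2 difference was -0.0301, -0.0281 and -0.0245 in the same order, and that of H3K27me3 was 0.0683, 0.0684 and 0.0662.

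**Figure D1:**
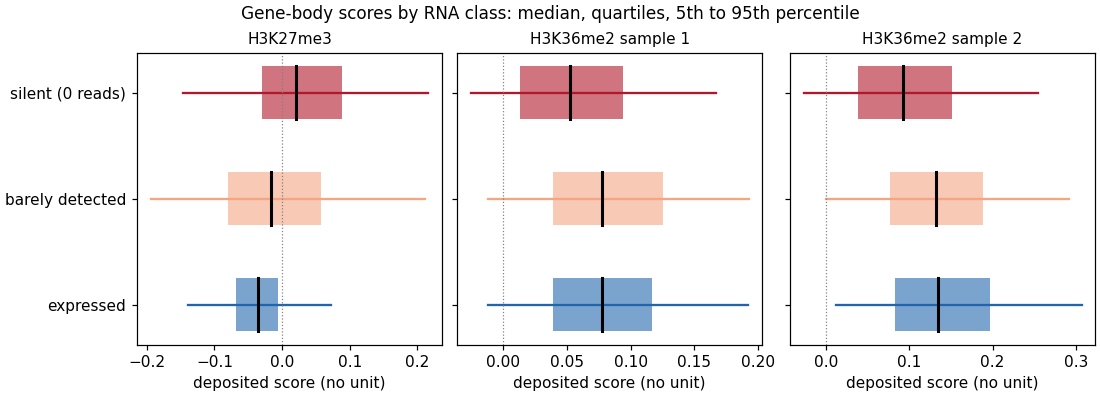
Scores of 2944 silent, 3749 barely detected and 12587 expressed gene bodies in the 3 columns of the authors' deposited table (x axis, score without unit); black lines are medians, boxes quartiles and thin lines the 5th to 95th percentile. The silent H3K27me3 median lies above 0 and the expressed one below, while all H3K36me2 medians lie above 0.

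The H3K27me3 difference did not begin at the border of the rule. Genes with a single read over the 6 libraries (697 gene bodies) had a median H3K27me3 score of 0.00700, genes with 2 reads (424) -0.000161, and genes with 3 to 6 reads (783) -0.0144. From 13 to 5000 reads the medians of 4 bins lay between -0.0325 and -0.0288, and the median was -0.0466 in the 1013 gene bodies with over 20000 reads, of which 11.6% scored above 0. The H3K36me2 sample 1 median was 0.0526 at 0 reads, 0.0650 at 1 read and 0.0774 at 2 reads, and stayed between 0.0773 and 0.0895 above that. Sample 2 went from 0.0921 through 0.113 to 0.126 over the same steps, and was 0.134 from 1001 to 5000 reads, 0.142 from 5001 to 20000 and 0.159 above. All 3 columns thus moved over the first steps, and H3K27me3 and sample 2 moved again at the highest RNA levels. Just outside the rule, with 1 read, lay Car10 (H3K27me3 score 0.557), Gpr37 (0.459) and Dazl (0.423) at one end and Il22 (-0.412), Mixl1 (-0.365) and Tlr12 (-0.364) at the other, a range like that of the silent gene bodies.

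**Figure D2:**
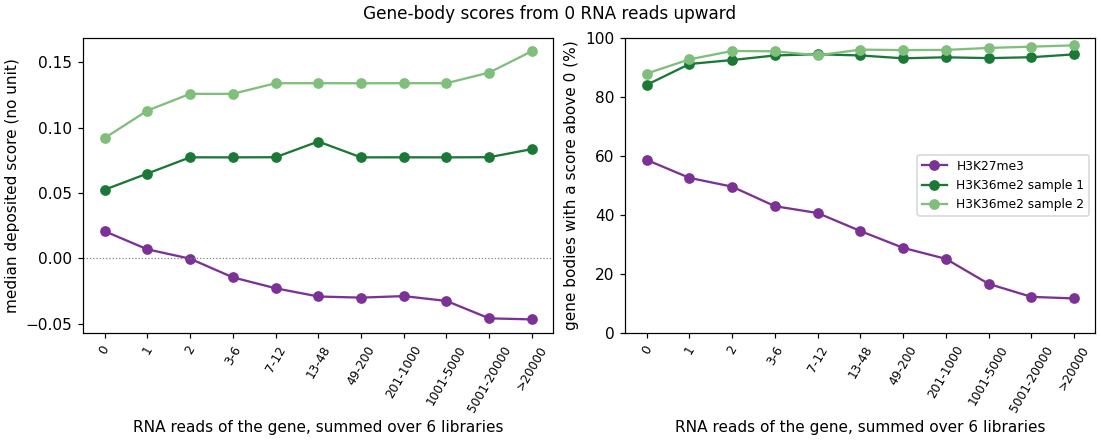
Median score (left) and share of gene bodies above 0 (right, %) by the number of RNA reads of the gene summed over 6 libraries (x axis, 0 to over 20000). The share above 0 in H3K27me3 goes down along the whole axis, from 58.6% to 11.6%, while its median is nearly level from 13 to 5000 reads, and both H3K36me2 columns are lowest at 0 reads.

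Where a score sat on the lattice of whole steps, the heights of both libraries could be read back. That was so for 18.1% of silent and 30.3% of expressed gene bodies in the H3K27me3 column, and for 29.7% and 19.4% in H3K36me2 sample 1 and 31.2% and 20.2% in sample 2. These gene bodies are not a sample of all: over them the silent median H3K27me3 score was 0, not 0.0209. In H3K27me3 the silent medians were 6 steps in the added and 6 in the subtracted library, and the expressed medians 4 and 6. In these medians the classes differed in the added library. In H3K36me2 both libraries were lower over silent gene bodies: 6 and 6 steps against 8 and 9 in sample 1, and 5 and 6 against 8 and 9 in sample 2.

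Set against the sum of both heights, the H3K36me2 scores of the classes came close together. The median score divided by that sum was 0.136 in silent and 0.144 in expressed gene bodies in sample 1, and 0.173 and 0.18 in sample 2. For H3K27me3 it was -0.0232 and -0.165. So over the gene bodies that could be read back, silent genes had less H3K36me2 signal in both libraries and a similar balance between them, while the H3K27me3 balance itself differed. Over expressed gene bodies the library with the larger step was the higher one in most cases in each of the 3 columns. Over silent ones that held for H3K36me2. In H3K27me3 the added library, with the smaller step, was the higher one in 58.6% of all silent gene bodies. Among the 532 silent gene bodies read back it was the higher one in 42.1%. In H3K36me2 sample 1 the added library was the higher one in 77.3% of silent and 93.1% of expressed gene bodies read back. Counted in steps without their size, it was higher in 18.7% and 21.8%. Sample 2 had 78.8% and 96.6%, and 19.7% and 20.6% in steps. In H3K27me3 the shares in steps were 42.7% and 11.2%. The part of the step size in the sign of the scores was not tested. IgG heights are not analysed here, so how much of a height is background was not tested.

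**Figure D3:**
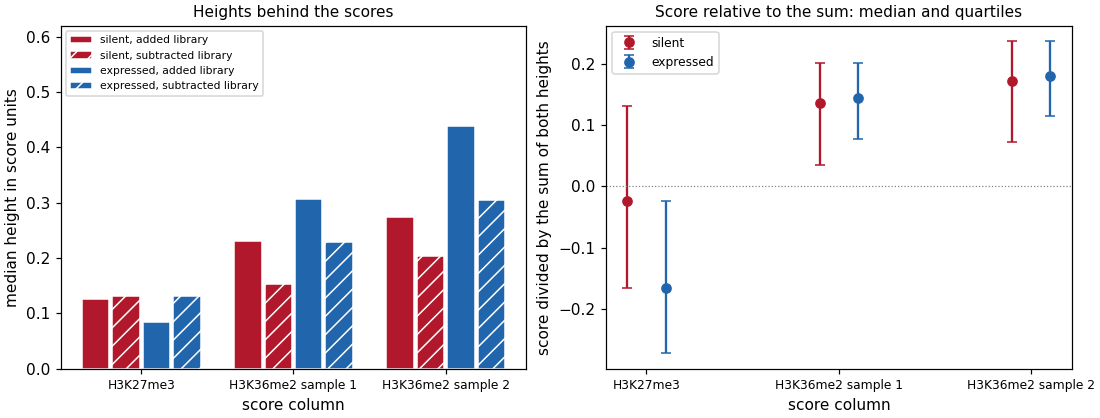
Left, median height of the added and subtracted libraries in score units (y axis, from 0) over silent and expressed gene bodies whose scores could be read back; right, score divided by the sum of both heights, with medians as points and quartiles as bars. In both H3K36me2 columns the silent bars are lower, yet the relative scores nearly coincide (0.136 and 0.144, 0.173 and 0.18).

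The differences between the classes were also seen at matched length. Silent gene bodies were shorter, but within each of 5 length classes the silent H3K27me3 median was above the expressed one and the silent H3K36me2 medians were below in both samples. The H3K27me3 medians were 0.0138 and -0.0259 under 2 kb, 0.0149 and -0.0466 from 5 to 20 kb, and 0.0754 and -0.0268 over 60 kb. Among silent gene bodies the share above 0 was thus largest for the longest genes, at 74.8% of 305 over 60 kb against 55.3% of 524 under 2 kb. That was not particular to silent genes. Barely detected gene bodies had 57.5% over 60 kb against 28.4% under 2 kb, and expressed ones 25.3% against 19.5%. Ptprt (H3K27me3 score 0.475), a receptor tyrosine phosphatase of the nervous system that spans 1139160 bases, was the longest of the high-scoring genes.

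Silent gene bodies close to an expressed gene scored otherwise than those far from one. Within 10 kb of an expressed gene body, overlaps included, the median H3K27me3 score of 196 silent gene bodies was -0.0198, and from 10 to 50 kb it was -0.00673 (528). It was 0.0392 from 50 to 200 kb (897), 0.0358 from 200 kb to 1 Mb (827) and 0.0140 beyond 1 Mb (266). H3K36me2 medians were lower in the far bins than in the near ones, though not at each step: they were 0.0703, 0.0771, 0.0643, 0.0512 and 0.0259 in sample 1, and 0.120, 0.113, 0.109, 0.0793 and 0.0373 in sample 2. Within 10 kb 42.3% of silent gene bodies scored above 0 in H3K27me3, and from 10 to 50 kb 47%, both above the 18.1% of expressed gene bodies. The course was not particular to silent genes. Barely detected gene bodies had H3K27me3 medians of -0.0425 up to 10 kb, overlaps apart, 0.0396 from 200 kb to 1 Mb and -0.000989 beyond. At the far end 50.8% of silent gene bodies lay on chromosomes X, Y or 14, against 18% of all silent gene bodies with a position. On autosomes alone the medians beyond 1 Mb were 0.0234, 0.0397 and 0.0840, and that of H3K36me2 sample 2 was also 0.0840 from 200 kb to 1 Mb. Over the gene bodies that could be read back, heights were lowest in the farthest bin. In H3K36me2 sample 1 the library medians were 7 and 8 steps within 10 kb, 7 and 7 from 50 to 200 kb and 1 and 1 beyond 1 Mb. In H3K27me3 they were 8 and 11 steps within 10 kb (27 of 196 read back) and 13 and 14 from 10 to 50 kb (39 of 528). Beyond 1 Mb they were 1 and 1 (120 of 266). The few read back near expressed genes do not stand for their bins. Their median H3K27me3 scores were -0.0426 within 10 kb and -0.0268 from 10 to 50 kb, against -0.0198 and -0.00673 over the whole bins. The part of these low heights in the low scores was not tested.

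**Figure D4:**
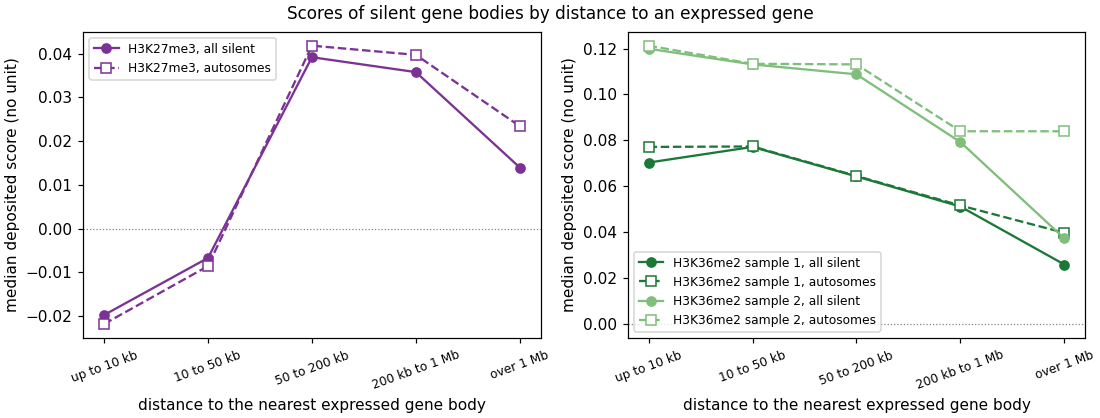
Median score of silent gene bodies (y axis, no unit) by distance to the nearest expressed gene body (x axis, 5 bins of 196, 528, 897, 827 and 266 gene bodies), for H3K27me3 (left) and H3K36me2 (right); filled symbols are all silent gene bodies and open ones autosomes alone. H3K27me3 medians are below 0 up to 50 kb and above 0 beyond, and H3K36me2 medians over all silent gene bodies are lowest beyond 1 Mb (0.0259 and 0.0373).

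Neighbours tended to score alike, most of all in H3K27me3. Across 1239 pairs of silent gene bodies next to each other, Spearman's rho was 0.299 for H3K27me3, 0.225 for H3K36me2 sample 1 and 0.185 for sample 2; pairs share the libraries and often the sequence of a duplicated family. Silent gene bodies with no neighbour known to have 0 reads (899) had a median H3K27me3 score of 0.00701. Those in runs of 6 to 10 genes with 0 reads (437) had 0.0390. A gene body without a symbol in the RNA table also ended a run, so some runs may be cut short. In the longest runs, of 11 to 127 genes, the median of 448 gene bodies was 0.0209. There were 28 runs with at least 10 silent gene bodies, and 20 of them had a median above 0. In the run from Ugt2b35 to Csn1s2b on chromosome 5, with glucuronosyltransferase and casein genes, 14 of 14 scored above 0 (median 0.113). In the Cyp2c run on chromosome 19, 11 of 11 did (median 0.0685), and in the run from Tas2r130 to Tas2r140 on chromosome 6, with bitter taste receptors and salivary proline-rich proteins, 29 of 33 did (median 0.0547). The run from Wfdc6a to Spint5 on chromosome 2, which encodes protease inhibitors of the WAP and Kunitz types, went the other way, with 2 of 11 above 0 and a median of -0.110. The placental prolactin run from Prl3d3 to Prl7b1 on chromosome 13 was near 0 in H3K27me3 (median -0.00693) and high in H3K36me2 (0.135 and 0.155), above the expressed medians. Silent clusters therefore did not share a single pattern.

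Silent gene bodies on the sex chromosomes had low H3K36me2 scores. On X the 268 silent gene bodies had medians of 0.0128 for H3K27me3 and 0.0259 and 0.0501 for H3K36me2, and the 52 on Y had medians of 0 in each column. The H3K27me3 median on X was not the lowest: chromosomes 11, 13 and 14 had 0.00510, -0.00194 and 0. Expressed gene bodies on X were low in H3K36me2 too, with 0.0420 and 0.104. Over silent gene bodies read back, both libraries on Y had median heights of 0 steps in each column. On X the silent H3K36me2 heights were 3 and 4 steps in sample 1 and 3.5 and 4 in sample 2. On autosomes they were 6 and 7 in both samples. The part of these heights in the scores was not tested. In these cells X and Y held 11.8% of silent and 3.07% of expressed gene bodies with a position, and the autosomal differences are given above.

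Promoters of silent genes were poor in CpG. The RefSeq table had a window for 2088 silent (70.9%) and 9881 expressed (78.5%) gene bodies, from 250 bases before to 50 after the start; with under 80% matched, these values describe the matched genes only and are void as a check of the whole set. A window was called CpG-rich with an observed to expected CpG ratio of at least 0.6 and a GC share of at least 0.5. That held for 9.63% of silent, 24.2% of barely detected and 68.0% of expressed promoters, and for 34.1% of all windows in the table. The letters TATAAA, on either strand, occurred in 22.4% of silent, 7.05% of expressed and 14.2% of all windows. The letters GGGCGG, which contain a CpG, occurred in 16.3%, 64.1% and 35.9%, and CCAAT in 40.4%, 38.9% and 37.9%. Such matches are letters in a window and not sites.

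Among silent genes, CpG-rich promoters went with H3K27me3 scores that were larger in size, of either sign. How far their signed median lay above that of CpG-poor promoters depended on the definition. Medians were 0.0349 for 201 CpG-rich and 0.0291 for 1887 CpG-poor genes, and 60.2% and 61.2% scored above 0. The median size of the score without its sign was 0.0969 against 0.0615, and the 5th to 95th percentile ran from -0.168 to 0.306 against -0.142 to 0.214. With a stricter definition, a ratio of at least 0.75 and a GC share of at least 0.55, the difference in medians was 0.0561 in place of 0.00575. In H3K36me2 CpG-rich promoters went with higher scores, 0.0680 against 0.0528 in sample 1 and 0.117 against 0.0921 in sample 2. CpG-rich silent genes were also longer, with a median of 18206 bases against 8089.

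At the high end of H3K27me3 the authors' deposited table has Hba-a1 (0.553), an alpha-globin gene, Bhlhe23 (0.530), a neural transcription factor, and Mpped1 (0.528). Sox14 (0.482), a transcription factor of the developing brain, Ptprt (0.475), Adra2c (0.434), an adrenergic receptor, Slc22a3 (0.428), an organic cation transporter, and Neurod2 (0.414), a neuronal transcription factor, followed in the authors' deposited table. Their H3K36me2 scores there lay between 0.0133 and 0.128 in sample 1 and between 0.0921 and 0.299 in sample 2, and none was below 0. Of the 8, 5 had CpG-rich promoters, against 2 of the 8 lowest and 9.63% of silent promoters. This contrast depends on the cutoffs. Of the lowest genes, Evx2 (ratio 1.13, GC share 44.3%) missed only the GC cutoff and Pitx3 (ratio 0.535, GC share 71.7%) only the ratio cutoff. Hba-a1 (chromosome 11, 32283672 to 32284486) has a near-identical copy, Hba-a2, which scored 0.0108 in the authors' deposited table, so reads that fit both may have been left out or split, and 0 reads there is less certain.

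At the low end of H3K27me3 stood Evx2 (-0.472 in the authors' deposited table), a homeobox gene next to the HoxD cluster, Hes5 (-0.406), a target of Notch signalling, and Pitx3 (-0.390), a homeobox factor of lens and midbrain neurons. The authors' deposited table continues with Golt1a (-0.361), Gsc2 (-0.346), a homeobox factor, Defb36 (-0.340), a beta-defensin, Lypd3 (-0.333) and Bpi (-0.331), a protein that binds bacterial endotoxin. All 8 were above 0 in both H3K36me2 columns, and the farthest of them from an expressed gene body was Bpi, at 21960 bases. Of the 8 highest genes, the nearest to an expressed gene body was Hba-a1, at 15965 bases.

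In H3K36me2 the highest silent means of both samples belonged to genes of lymphocytes, sperm and placenta among others. Gzma, a protease of cytotoxic lymphocytes, scored 0.232 and 0.450 in the authors' deposited table, and Cd96, a lymphocyte receptor, 0.308 and 0.332. Krtap3-2, a hair keratin-associated protein, had 0.142 and 0.475 there, and Prl8a6, a placental prolactin, 0.233 and 0.366. The other 4 of the highest 8 in the authors' deposited table were Dpep3, Catsper1, a sperm calcium channel, Pxt1 and Slc51b, with 0.143 to 0.308 in sample 1 and 0.223 to 0.388 in sample 2. Scores below 0 in both samples were rare, with 58 of 2944 silent gene bodies (1.97%) and 40 of 12587 expressed ones (0.318%). The lowest were AW822073 (-0.267 and -0.188 in the authors' deposited table), Rhox3a (-0.140 and -0.0467) and Rhox2a (-0.102 and -0.0595), homeobox genes of the X-linked Rhox cluster, and Negr1 (-0.127 and -0.0124), a neuronal adhesion protein. Ang6, Dcpp2, Csn3, which encodes kappa-casein, and Obox1 completed the 8 lowest. The 2 samples ranked silent gene bodies alike only in part, with a Spearman's rho of 0.269 over 2944 genes against 0.118 over the expressed ones, so a single H3K36me2 score is weakly repeated.

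Families of silent genes were described by 39 lists of symbols, of which 33 had at least 5 silent members; together the lists held 690 silent gene bodies. The median H3K27me3 score was above the expressed median in 29 of the 33 lists and above 0 in 22, and it was above the silent median in 18. For H3K36me2 it was above 0 in 32 and 33 lists. Counts above 0 below are to be read against the 58.6% of all silent gene bodies that scored above 0 in H3K27me3. Counts of 8 of 14 (57.1%) or 4 of 7 (57.1%) are no more than that share. Lists of clustered copies share sequence, so their members are not independent.

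Among liver and detoxification genes, the enzyme lists had high medians. All 10 silent UDP-glucuronosyltransferases, which attach sugar acids to drugs and hormones, scored above 0 in H3K27me3, with a median of 0.0968 and values from 0.0487 (Ugt2b37) to 0.302 (Ugt2b35) in the authors' deposited table. Of 41 silent cytochrome P450 genes of families 1 to 4, oxidases of drugs and lipids, 36 scored above 0 (median 0.0715), the highest being Cyp2c54 (0.189 in the authors' deposited table). Class A serpins, protease inhibitors of plasma, had 11 of 14 above 0 (median 0.0466). Major urinary proteins, made in the liver, had 14 of 20 above 0 with a median of 0.0190, below that of all silent gene bodies, and low H3K36me2 medians of 0.0438 and 0.0315. The 11 expressed cytochrome P450 genes had a median H3K27me3 score of -0.0206. The 7 expressed glucuronosyltransferases had 0.111, higher than the silent ones. Genes of the Ugt1a group overlap in a shared gene body, so reads and heights there cannot be told apart. This holds also for Ugt1a10, which is among the 10 silent ones and overlaps an expressed gene body. Its H3K36me2 scores, 0.283 and 0.215, equal the medians of the expressed glucuronosyltransferases.

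Globins followed, with 10 of 10 above 0 and a median of 0.0635; without Hba-a1 their scores lay between 0.0108 and 0.160. Taste receptors, the receptors for bitter, sweet and savoury compounds, had 27 of 30 above 0 (median 0.0692), from -0.0925 in Tas2r134 to 0.295 in Tas2r139 in the authors' deposited table. Trace amine receptors, olfactory receptors of amines, had 5 of 13 above 0 (median -0.0195), and MAS-related receptors, of itch and pain neurons, 9 of 13 (median 0.0139). Immune lists were also divided. Formyl peptide and other leukocyte receptors had 20 of 26 above 0 (median 0.0581), killer lectin-like receptors 12 of 18 (0.0293), type I interferons 7 of 10 (0.0521), beta-defensins 24 of 34 (0.0487) and interleukins 1 of 5 (-0.0742).

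Skin and hair genes split by kind. Genes of the cornified envelope, the protein shell of dead skin cells, had 23 of 31 above 0 (median 0.0467), and Hrnr was highest (0.275 in the authors' deposited table). Keratins had 7 of 20 above 0 (median -0.0423), from Krt12 (-0.232), a keratin of the cornea, to Krt73 (0.202) in the authors' deposited table. Keratin-associated proteins of hair had 20 of 42 (median -0.00558). Crystallins, the proteins of the lens, had 2 of 7 above 0 and the lowest median of the 33 lists (-0.135). Neighbours differed there: Cryge scored -0.235 and Crygd, in the same cluster on chromosome 1, scored 0.135 in the authors' deposited table.

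Germ-line and placental lists differed from each other. Oocyte and early embryo genes had 32 of 42 above 0 (median 0.0507), with Dppa1 highest (0.207) and Figla, a transcription factor of oocytes, lowest (-0.253) in the authors' deposited table. Sperm and spermatid genes had 23 of 34 above 0 (median 0.0311), where their 32 expressed members had a median of -0.0268. The X-linked testis and reproductive families had 34 of 72 above 0 (median -0.00218) and low H3K36me2 medians (0.0259 and 0.0605). Prolactins of the placenta had 9 of 19 above 0 in H3K27me3 (median -0.00594) and H3K36me2 medians of 0.121 and 0.155, and pregnancy-specific glycoproteins 7 of 9 above 0 (median 0.0517) with H3K36me2 medians of 0.000702 and 0.0799.

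Developmental transcription factors had large H3K27me3 scores of both signs. Other homeobox factors, the HOX clusters aside, had 12 of 30 above 0 with a median of -0.0479, yet ran from Evx2 (-0.472) to Onecut1 (0.403), a factor of liver and retina, in the authors' deposited table. Their median size without sign was 0.146, against 0.0592 over all silent gene bodies. Forkhead, SOX, GATA and T-box factors had 8 of 14 above 0 (median 0.0908), from Foxa3 (-0.228), a forkhead factor of liver and gut, to Sox14 (0.482) in the authors' deposited table. Neural and mesodermal bHLH factors had 12 of 17 above 0 (median 0.0559), with Bhlhe23, Neurod2 and Atoh1 (0.283) at the top and Atoh7 (-0.178), a factor of retinal ganglion cells, at the bottom. The 47 expressed homeobox factors had a median of -0.0284 and the 48 expressed forkhead, SOX, GATA and T-box factors -0.0258. Of the HOX genes only Hoxd12 was silent (-0.155 in H3K27me3).

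Lists of neuronal and endocrine genes differed widely. GABA-A receptor subunits, of inhibitory synapses, had the highest median of the 33 lists (0.103), with 9 of 11 above 0 and Gabra5 highest (0.301 in the authors' deposited table); the 5 expressed subunits had 0.00602. Serotonin and dopamine receptors had 4 of 7 above 0 (median 0.0993), potassium channels 5 of 10 (median -0.0138). Peptide hormones had 7 of 17 above 0 (median -0.0228), from Gcg, the glucagon gene (-0.172), to Sst, the somatostatin gene (0.245), in the authors' deposited table. Of 12 lists with at least 5 silent and 5 expressed members, the silent H3K27me3 median was the higher in 8, and the silent H3K36me2 median was the higher in 3 in sample 1 and in 2 in sample 2.

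**Figure D5:**
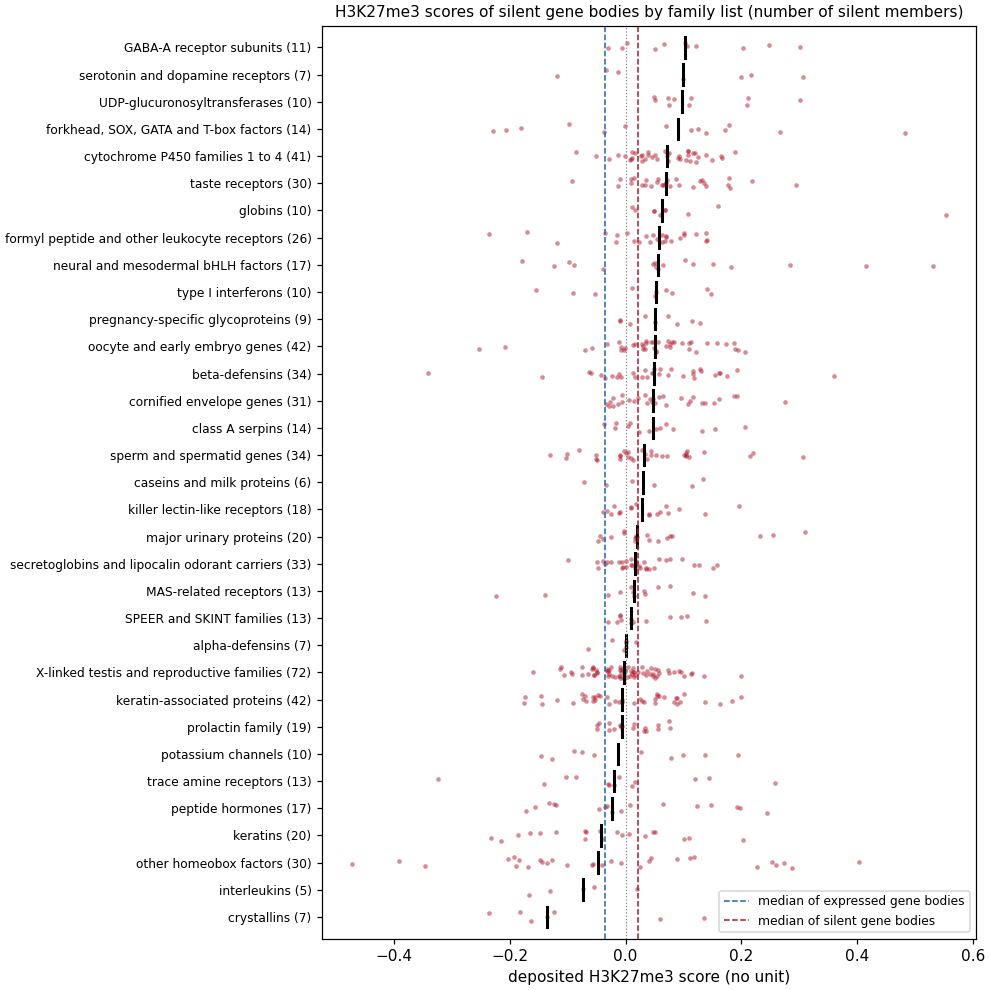
H3K27me3 scores (x axis, no unit) of silent gene bodies in the 33 lists with at least 5 silent members; points are gene bodies, black bars list medians and dashed lines the medians of all silent and all expressed gene bodies. List medians run from -0.135 in crystallins to 0.103 in GABA-A receptor subunits, and homeobox, bHLH and SOX lists reach the ends of the range.

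The RNA behind the silent call was deep. Recovered totals were 20294828 to 21863833 reads per library and 126215020 in all, so 0 reads allow up to 0.137 to 0.148 RPM (reads per 1e+06) in a library and 0.0238 over the 6 together, for counting error only. Marker lists were read on the same counts. Of 10 mesenchymal markers 9 were expressed, with summed levels of 1078610 to 1230540 normalized counts per library. At 0 reads were 6 of 10 pancreas, 4 of 10 hepatocyte, 4 of 10 T cell and 5 of 9 erythroid markers. Neuron markers had 3 of 10 at 0 reads, myeloid and cardiac muscle 2 of 10, and B cell, skeletal muscle and melanocyte 1 of 10. For comparison, 23146 of 55433 RNA genes and 4553 of 21120 gene bodies with an RNA symbol had 0 reads. The marker counts are a description only. No endothelial, photoreceptor or male germ cell marker was at 0 reads, and 4, 6 and 3 of 10 were expressed. Epithelial markers summed to 3072 to 4826 normalized counts, with 4 of 10 expressed and 2, Epcam and Esrp1, at 0 reads. Both silent epithelial genes scored below 0 in H3K27me3, -0.129 and -0.247. In bulk RNA, a gene silent in all cells and one used by very few cells cannot be told apart below this limit.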

How the data were processed

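RNA and chromatin values came from 2 tables of the whole series. The mm10 build and the tools DESeq2, featureCounts and HISAT2 are named per the submitters' processing notes; their versions, and how the scores were computed, are not given in the sources used here. The authors deposited RNA as normalized log2 values, which were read here as variance-stabilised. The closed form of that scale was inverted, and every value was a whole number of reads within 0.05. Counts were divided by the size factors that these steps imply. The authors deposited chromatin values as 1 signed score per gene body and column, with 0 other value columns. Heights of up to 30 steps were read back within 1e-07, and scores under 1e-06 in size were taken as 0. Replicate numbers follow the sample titles. The sample titled SgNSD3_IgG bears a source label of sgControl, and both IgG samples an H3K36me2 antibody label; no IgG value was used. Both recoveries were tested on simulated data.

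Positions, lengths, gene types and promoter sequences came from RefSeq tables (GRCm38.p6), with a gene for 2714 (92.2%) silent gene bodies. A gene body was joined to its RNA by symbol. The members and lists were chosen with earlier results of these data known. Named genes, predicted symbols left out, were the 8 highest and 8 lowest H3K27me3 scores, the 8 highest and 8 lowest mean H3K36me2 scores of the same sign in both samples, and the highest and lowest H3K27me3 score of each list with at least 5 silent members; further members named beside them were chosen after their values were seen. No test was made, since no column holds values per library and gene bodies are not replicates. Alternatives changed the silent and expressed limits, the join, the length, the chromosomes and the treatment of families. Software was Python 3.11.15 with numpy 2.4.6, pandas 2.3.3, scipy 1.17.1 and matplotlib 3.10.9.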

Additional observations from a re-analysis of the deposited data

How the results depend on the processing

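The difference of medians between silent and expressed gene bodies kept its sign under every alternative run, positive for H3K27me3 and negative for both H3K36me2 columns. Sizes moved. An alternative is listed as moved where it left a 95% interval of the silent median, taken from the ranked scores of silent gene bodies. That interval treats gene bodies as independent, which they are not. It only sorts the alternatives and gives no error of the difference. Values follow in the order H3K27me3, H3K36me2 sample 1, H3K36me2 sample 2 where all 3 moved beyond the interval of the silent median: 0.0662, -0.0132 and -0.0245 over medians of family stems, 0.0683, -0.0131 and -0.0301 on autosomes, 0.0684, -0.0129 and -0.0281 without predicted symbols, 0.0443, -0.0271 and -0.0502 with gene bodies at 0 in all columns kept, 0.0601, -0.0144 and -0.0351 without those at 0 in any column, and 0.0485, -0.0129 and -0.0290 with up to 6 reads allowed. With up to 1 read allowed, H3K36me2 gave -0.0147 and -0.0340. For H3K27me3 and sample 2, gene bodies of 5 to 50 kb gave 0.0681 and -0.0338, reweighting over 5 length classes 0.0644 and -0.0361, and expressed genes above their median 0.0666 and -0.0490. With olfactory and vomeronasal receptors kept, H3K27me3 gave 0.0656 and sample 1 -0.0257. H3K27me3 alone moved to 0.0504 with any read as expressed and 0.0647 for protein-coding genes, and sample 2 alone to -0.0422 with at least 32 normalized counts. The CpG-rich minus CpG-poor H3K27me3 difference was 0.0561 under the stricter definition. Leaving out each RNA library in turn gave 0.0554 to 0.0565, -0.0249 to -0.0218 and -0.0420 to -0.0410.

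No paired analysis was possible because no result comes from a test. The H3K36me2 columns carry the numbers 1 and 2, but each is already a difference of 2 unnamed libraries. The join by accession was not run, and synonyms were used alone. Depth limits the silent call, and no source here says how reads matching several near-identical copies were counted. Scores without values per library have no error.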
